A study of Mus musculus with 5 samples.

Results

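Integrins, selectins and the other surface molecules that leukocytes use to adhere were examined in the CD11b+Gr1+ myeloid cells of mouse lungs, isolated by flow cytometry. The set holds 37 listed genes: integrin chains, selectins and a selectin ligand, immunoglobulin-type or junctional molecules, and intracellular proteins that switch integrins on. A gene was taken through the probe set that the platform's annotation gives to that gene alone. This found 32 of the 37 genes, each with 1 probe set, among 14807 genes measured in this way. Itgax, Itga1 and Itga4 have probe sets that also carry another gene's symbol, and no probe set is named for Itgad or Itgb8, so these 5 are not analysed here. The tumour-challenged samples (2 arrays) came from wild-type mice given 5000000 LLC-RFP cells subcutaneously and examined 9 days later. LLC is the mouse Lewis lung carcinoma line, and RFP is a red fluorescent protein. The control samples (3 arrays) came from wild-type mice without tumour. Each RNA sample came from about 100000 sorted cells. The labels do not say whether the arrays of a group come from separate mice, so their spread may be technical.

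Leukocytes leave the blood in steps. Selectins on the vessel wall catch ligands such as PSGL-1 and let the cell roll, integrins then change shape and bind immunoglobulin-type partners such as ICAM-1, and junctional molecules guide the cell between endothelial cells. Integrins are pairs of an alpha and a beta chain. The beta-2 integrins LFA-1 and Mac-1 are found on leukocytes alone, and neutrophils depend on them in most vascular beds. Talin and kindlin-3 bind the beta chain's tail inside the cell and bring the integrin into its binding form. The sorting gate used CD11b, the alpha chain of Mac-1, so the presence of Itgam here is set by the sort.

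F11r had the largest difference between the groups among the adhesion genes. It encodes junctional adhesion molecule A (JAM-A), a tight-junction protein of epithelium and endothelium that leukocytes and platelets also carry and that LFA-1 can bind. Its log2 RMA values were 9.16 and 8.64 in tumour-challenged samples, against 7.73, 8.15 and 7.47 in control samples. Both tumour-challenged arrays lay above all 3 control arrays. The difference of means was 1.11 ± 0.27 log2 (SE), a 2.16-fold higher mean after tumour challenge, and ranked as number 12 of 16661 probe sets from the highest. It did not pass the test over the whole table (limma with Benjamini-Hochberg adjustment, adjusted p = 0.648, 95% interval of the difference 0.39 to 1.84). The other 31 genes differed by between -0.33 and 0.35 log2, and none of their 95% intervals reached 2-fold in either direction. Those intervals rest on a spread that may be technical, and they say little for genes near the background level given below.

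The stretches of 250 bases just before the annotated start of 5 of these genes are shown from RefSeq (mouse build GRCm38.p6). F11r is shown as the gene past 2-fold, Sele and Selp as the genes with lower, separate arrays, Fermt3 as the next largest positive difference and Itgam as the gene of the sorting gate. Capitals mark letters that match a searched motif on either strand. The AP-1 motif was searched as TGANTCA. The PU.1 core, bound by a factor central to myeloid cells, was searched as GAGGAA. The letters GGGCGG stand for Sp and KLF factors, and TATAAA for the TATA box. The kappaB consensus was searched as well. No printed matches overlap.
F11r promoter, chr1:171437311-171437560, + strand: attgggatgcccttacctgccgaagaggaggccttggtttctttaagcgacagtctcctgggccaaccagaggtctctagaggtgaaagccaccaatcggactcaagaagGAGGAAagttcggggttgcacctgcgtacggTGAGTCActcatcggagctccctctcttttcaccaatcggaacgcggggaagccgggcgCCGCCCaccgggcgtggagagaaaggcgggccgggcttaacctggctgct
Sele promoter, chr1:164047984-164048233, + strand: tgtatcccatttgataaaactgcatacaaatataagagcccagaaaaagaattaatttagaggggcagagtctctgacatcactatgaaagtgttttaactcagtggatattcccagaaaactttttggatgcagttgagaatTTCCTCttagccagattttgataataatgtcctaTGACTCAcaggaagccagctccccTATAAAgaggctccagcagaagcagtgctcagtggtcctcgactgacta
Selp promoter, chr1:164115014-164115263, + strand: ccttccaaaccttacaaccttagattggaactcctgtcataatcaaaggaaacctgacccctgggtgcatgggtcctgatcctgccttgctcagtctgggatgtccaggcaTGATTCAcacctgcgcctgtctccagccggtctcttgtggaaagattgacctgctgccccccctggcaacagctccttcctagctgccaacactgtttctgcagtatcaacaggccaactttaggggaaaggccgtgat
Fermt3 promoter, chr19:7019470-7019719, - strand: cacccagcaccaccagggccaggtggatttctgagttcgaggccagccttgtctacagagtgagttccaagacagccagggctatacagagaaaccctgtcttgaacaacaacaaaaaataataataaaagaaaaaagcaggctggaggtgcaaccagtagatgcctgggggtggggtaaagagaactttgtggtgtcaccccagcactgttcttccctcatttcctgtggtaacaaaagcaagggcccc
Itgam promoter, chr7:128062390-128062639, + strand: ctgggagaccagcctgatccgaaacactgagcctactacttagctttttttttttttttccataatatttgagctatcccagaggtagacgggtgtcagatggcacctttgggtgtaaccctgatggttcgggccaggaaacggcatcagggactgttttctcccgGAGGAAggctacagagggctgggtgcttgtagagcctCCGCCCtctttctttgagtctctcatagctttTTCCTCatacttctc

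RefSeq's promoter table had an entry for 19 of the 32 measured genes. The AP-1 letters stood before 3 of these 19 genes, F11r, Sele and Selp, and in 6.75% of all 32851 promoter windows. In F11r the match lies 109 to 103 bases before the start, in Sele 73 to 67 bases and in Selp 139 to 133 bases. F11r also holds 1 GAGGAA match and 1 GGGCGG match, and Sele holds 1 GAGGAA match and the only TATAAA match among the 19 genes. The Itgam window holds 2 GAGGAA matches, which 23.3% of all windows have at least once, and 1 GGGCGG match, found in 32.7% of all windows. The Fermt3 window holds none of the 5 motifs. The kappaB consensus had no match before any of the 19 genes, while 3.9% of all windows hold it. These 5 motifs were settled after the matches of a first search with 7 motifs had been seen. That search used a looser kappaB pattern, which did match before 4 of the 19 genes, Itga3, Itgb5, Sele and Selp, and in 17.6% of all windows. The absence of a kappaB match before Sele and Selp therefore depends on which pattern is used. The first search also held a STAT pattern, found before Icam1 and Sele and in 7.02% of all windows, and a CRE pattern, found before 0 of the 19 genes and in 1.55% of all windows. Letters matching these 3 earlier patterns are not capitalised. Sele and Selp are neighbours on chromosome 1, with starts 67030 bases apart, and F11r lies on the same chromosome. A match of letters is a description of the sequence and not evidence that a factor binds there.

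Values are log2 expression values made by the authors with RMA, and every difference is tumour-challenged minus control on that scale. Array medians lay between 6.77 and 6.88 and upper quartiles between 7.90 and 8.23. Over all probe sets the median difference was 0.02. A value was called at background where it lay under 6.47, the level under which 90% of 831 probe sets for smell, pheromone and taste receptors have their mean. Of the measured adhesion genes, 28 lay above this level in at least 1 group, and 4 lay below it in both: Itga7, Itgb6, Vcam1 and Jam3. The group means of Itga2, Itga9, Itgae, Itgb4, Jam2 and Esam lay only a little above it, between 6.55 and 6.89. Their small differences and intervals therefore say little.

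At an adjusted p under 0.05 the limma test called none of the 32 genes (0 higher, 0 lower), and 0.0% of all probe sets in each direction. Taken at limma's unadjusted p under 0.05, F11r and Itga5 were higher and Sele was lower, where 3.58% of all probe sets were higher and 2.96% were lower. By the authors' rule of group means more than 2-fold apart, 1 gene was higher (3.12% of the genes, 0.144% of all probe sets) and 0 were lower (0.132% of all probe sets). At 1.5-fold F11r was still the only one higher and 0 were lower (1.15% of all probe sets in each direction). The list was chosen with earlier results of these data known. The share that F11r makes up therefore cannot show that adhesion genes pass these thresholds more often than other genes. Separate arrays were found for 5 genes that were higher, F11r, Fermt3, Itga5, Itgb7 and Itga9, which is 15.6% of the genes and 11.2% of all probe sets. Arrays were also separate for 2 that were lower, Sele and Selp, which is 6.25% of the genes and 7.83% of all probe sets. Those shares are near the ones over the whole table. Differences within 0.2 log2 of 0 were seen for 22 of the 32 genes, or 68.8%, and for 74.1% of all probe sets. The median difference of the 32 genes was 0.05, and 20 were positive (62.5%, against 57.3% of all probe sets).

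**Figure D1:**
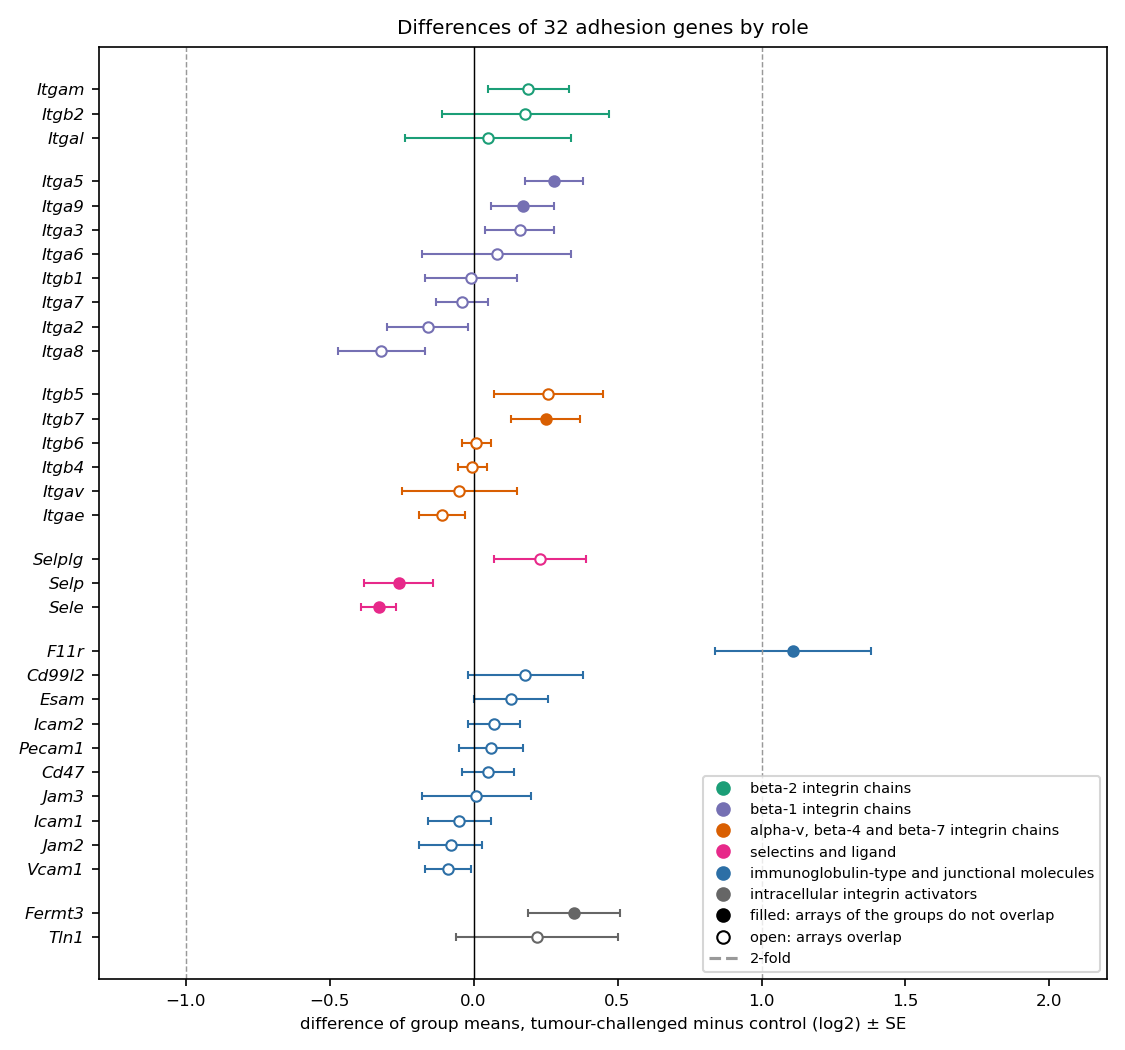
Difference of group means in log2, tumour-challenged minus control, with its SE from limma, for the 32 measured adhesion genes grouped by role. Filled points have arrays that do not overlap between the groups. F11r, at 1.11, is the 1 gene beyond the dashed 2-fold lines.

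**Figure D2:**
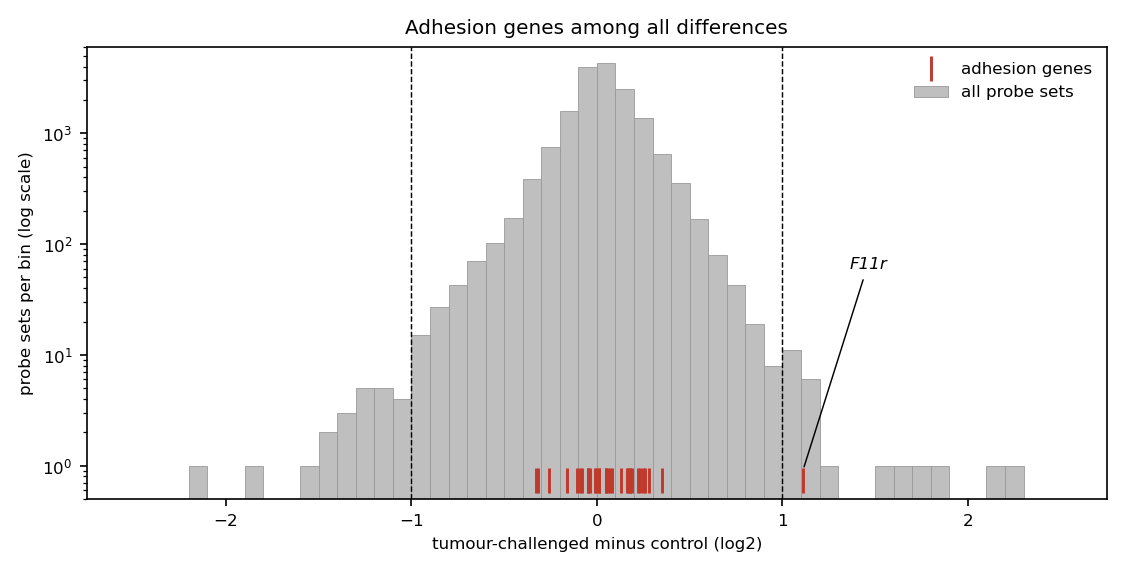
Number of probe sets (log scale) by difference in log2, tumour-challenged minus control, with red ticks for the 32 adhesion genes. All ticks except that of F11r lie between -0.33 and 0.35, in the bulk of the distribution.

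The endothelial selectins had lower values in the tumour-challenged samples, while the arrays of the leukocyte's own selectin ligand overlapped. Sele encodes E-selectin, which endothelium makes when cytokines activate it. It had 7.36 and 7.33 in tumour-challenged samples, against 7.71, 7.61 and 7.72 in control samples. The groups did not overlap, and the arrays within each group lay close together. Its difference was -0.33 ± 0.06 (SE), a mean 1.26-fold lower (limma adjusted p = 0.556). Selp encodes P-selectin, which platelets and endothelium store and bring to the surface on activation. Its values were 7.58 and 7.45 in tumour-challenged samples, against 7.65, 7.71 and 7.95 in control samples, a difference of -0.26 ± 0.12 (SE). The groups were separate by a small margin, since tumour-challenged replicate 1 and control replicate 1 were 7.58 and 7.65. Without control replicate 3 the difference of Selp was -0.17 and the arrays still did not overlap.

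Selplg encodes PSGL-1, the ligand through which leukocytes roll on P-selectin. It had 10.73 and 10.25 in tumour-challenged samples, against 10.27, 10.32 and 10.19 in control samples. Tumour-challenged replicate 1 alone lay above the controls, and replicate 2 fell among them. The difference was 0.23 ± 0.16 (SE, limma adjusted p = 0.843), and -0.01 without tumour-challenged replicate 1. In these bulk samples fewer cells of a type and less RNA per cell cannot be told apart. Of 19 endothelial markers measured, 8 had a positive and 11 a negative difference, with a median of -0.04. Their summed level on the linear scale ran from 3922 to 4160 in tumour-challenged samples and from 3847 to 4588 in control samples, so the groups overlapped. Cdh5, which encodes VE-cadherin, was at 8.75 ± 0.19 (SD, n = 2) in tumour-challenged samples and 8.83 ± 0.23 (SD, n = 3) in control samples, above background in both. Flt1, a VEGF receptor of endothelium, had 8.56 and 8.01 in tumour-challenged samples, against 8.80, 8.75 and 8.56 in control samples, a difference of -0.42 ± 0.20 (SE), and Calcrl differed by -0.16 ± 0.12 (SE). Among the 19 markers 3 were separate and higher and 1 separate and lower, against 11.2% and 7.83% of all probe sets. The part of endothelial RNA in the selectin values was not tested.

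**Figure D3:**
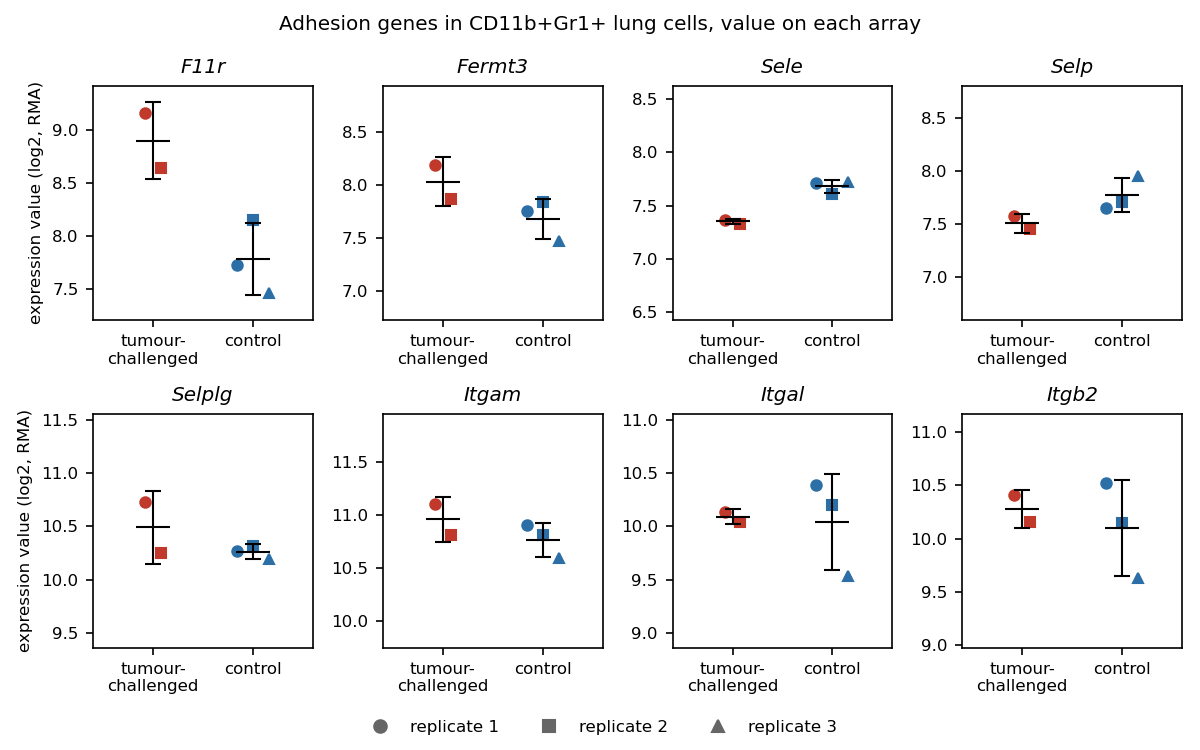
Log2 RMA values on each array for 8 adhesion genes, tumour-challenged samples at the left and control samples at the right of each panel, with the mean (bar) and SD (whiskers). Each panel spans the same log2 range, and the F11r groups are the most widely separated of the 8.

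The beta-2 integrin chains were bright in both groups and did not separate them. Itgam, the alpha chain of Mac-1, had 11.11 and 10.81 in tumour-challenged samples, against 10.91, 10.81 and 10.60 in control samples. Itgal, the alpha chain of LFA-1, had 10.14 and 10.04 in tumour-challenged samples, against 10.39, 10.20 and 9.53 in control samples. Itgb2, the beta chain that both share, had 10.41 and 10.16 in tumour-challenged samples, against 10.52, 10.15 and 9.63 in control samples. In all 3 genes the groups overlapped and control replicate 3 was the lowest array. The differences were 0.19 ± 0.14 for Itgam, 0.05 ± 0.29 for Itgal and 0.18 ± 0.29 for Itgb2 (SE). Itgam differed by 0.04 when tumour-challenged replicate 1 was left out and by 0.34 when replicate 2 was. The 95% intervals ran from -0.20 to 0.58 for Itgam, from -0.72 to 0.82 for Itgal and from -0.60 to 0.96 for Itgb2. Single control arrays moved Itgal and Itgb2: without control replicate 3 their differences were -0.21 and -0.05, the opposite sign. Without control replicate 1 they were 0.22 and 0.39.

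Among the beta-1 integrins, the fibronectin receptor chain Itga5 had the largest positive difference. Its values were 8.25 and 8.08 in tumour-challenged samples, against 8.01, 7.86 and 7.80 in control samples. The groups did not overlap and the difference was 0.28 ± 0.10 (SE, limma adjusted p = 0.735). Itga9, a chain found on neutrophils that binds tenascin and VCAM-1, had 6.67 and 6.76 in tumour-challenged samples, against 6.61, 6.65 and 6.38 in control samples. Its groups were separate by 0.0246 log2 and both lay near background, with a difference of 0.17 ± 0.11 (SE). Itgb1, the shared beta-1 chain, was bright, with 11.33 and 11.10 in tumour-challenged samples and between 11.43 and 11 in the 3 control samples. Its groups overlapped fully, with a difference of -0.01 ± 0.16 (SE).

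The remaining beta-1 partners all had overlapping arrays. Itga8, a receptor chain of mesenchymal cells that binds nephronectin, had 7.12 and 6.80 in tumour-challenged samples, against 7.31, 7.43 and 7.09 in control samples. The difference of -0.32 ± 0.15 (SE) was as large as that of Sele, but tumour-challenged replicate 1 lay among the controls, and without tumour-challenged replicate 2 it was -0.15. Itga6, a laminin receptor chain, had 8.12 and 7.81 in tumour-challenged samples, against 7.91, 8.24 and 7.49 in control samples, a difference of 0.08 ± 0.26 (SE). The collagen receptor chain Itga2 differed by -0.16 ± 0.14, the laminin receptor chains Itga3 and Itga7 by 0.16 ± 0.12 and -0.04 ± 0.09 (SE). Of these 3, Itga7 lay below background in both groups and Itga3 in the control samples. Across the 8 beta-1 genes measured of 10 listed, the median difference was 0.04, with 4 positive and 4 negative.

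Of the 6 integrin chains measured outside these families, 1 was separate and higher, against 11.2% of all probe sets. Itgb7 encodes the beta-7 chain, which pairs with the alpha-4 or alpha-E chain and binds the gut vessel molecule MAdCAM-1 or E-cadherin. It had 8.37 and 8.19 in tumour-challenged samples, against 8.18, 8.0 and 7.90 in control samples. The lowest tumour-challenged and the highest control array were 8.19 and 8.18, so the groups were barely separate, and the difference was 0.25 ± 0.12 (SE, limma adjusted p = 0.800), or 0.16 without tumour-challenged replicate 1. Itgae, the alpha-E chain known as CD103, a marker of T cells and dendritic cells at epithelia, had 6.76 and 6.68 in tumour-challenged samples, against 6.74, 6.83 and 6.92 in control samples. The groups overlapped, with a difference of -0.11 ± 0.08 (SE).

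Itgav, the alpha-v chain of receptors for vitronectin and latent TGF-beta, had 9.46 and 9.17 in tumour-challenged samples, against 9.67, 9.30 and 9.12 in control samples, a difference of -0.05 ± 0.20 (SE). Its partner Itgb5 had 8.65 and 8.19 in tumour-challenged samples, against 8.35, 8.16 and 7.96 in control samples. Only tumour-challenged replicate 1 lay above the controls in Itgb5, and the difference was 0.26 ± 0.19 (SE), or 0.03 without that array. Itgb4, the epithelial partner of alpha-6, differed by -0.0043 ± 0.05 (SE) and Itgb6, the epithelial partner of alpha-v, by 0.01 ± 0.05 (SE). Both of these genes have equal deposited values on several arrays, which makes their spread too small, and Itgb6 lay below background.

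Apart from F11r, the immunoglobulin-type and junctional molecules had overlapping arrays. Icam1 encodes the main LFA-1 and Mac-1 partner that inflammation induces. It had 8.77 and 8.52 in tumour-challenged samples, against 8.71, 8.79 and 8.60 in control samples, with a difference of -0.05 ± 0.11 (SE). Icam2, a constitutive LFA-1 partner of endothelium and platelets, had 8.06 and 7.86 in tumour-challenged samples, against 7.96, 7.86 and 7.85 in control samples. Pecam1, which encodes CD31 and acts during passage between endothelial cells, had 9.20 and 9.03 in tumour-challenged samples, against 8.91, 9.13 and 9.13 in control samples. The groups overlapped in both, with differences of 0.07 ± 0.09 for Icam2 and 0.06 ± 0.11 for Pecam1 (SE). Vcam1, the partner of alpha-4 beta-1 on activated endothelium, differed by -0.09 ± 0.08 (SE) and lay below background in both groups.

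The other JAM family genes had overlapping arrays. Jam2 (JAM-B), a junction molecule of endothelium, had 6.79 and 6.84 in tumour-challenged samples, against 6.97, 6.71 and 6.99 in control samples, a difference of -0.08 ± 0.11 (SE). Jam3 (JAM-C), which Mac-1 binds, differed by 0.01 ± 0.19 (SE) below background. Their 95% intervals were -0.36 to 0.21 for Jam2 and -0.50 to 0.51 for Jam3. Below background a change in Jam3 could hardly show, so its interval says little. Esam, a junction molecule of endothelium and platelets, had 6.66 and 6.78 in tumour-challenged samples, against 6.64, 6.73 and 6.39 in control samples, a difference of 0.13 ± 0.13 (SE).

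Cd47, the SIRP-alpha ligand that protects cells from being engulfed and also takes part in neutrophil migration, had 10.93 and 10.70 in tumour-challenged samples, against 10.79, 10.73 and 10.79 in control samples. The control values lay within the tumour-challenged ones, and the difference was 0.05 ± 0.09 (SE). Cd99l2, a surface protein used in crossing the vessel wall, had 7.89 and 7.32 in tumour-challenged samples, against 7.51, 7.52 and 7.27 in control samples. Its 2 tumour-challenged arrays lay far apart, and the difference of 0.18 ± 0.20 (SE) was -0.11 without tumour-challenged replicate 1.

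The 2 intracellular activators had positive differences, as had 57.3% of all probe sets. Of the 2, 1 was separate and higher, against 11.2% of all probe sets. Fermt3 encodes kindlin-3, the kindlin of blood cells, without which beta-2 integrins stay inactive. It had 8.19 and 7.87 in tumour-challenged samples, against 7.75, 7.84 and 7.47 in control samples. The lower tumour-challenged array and the highest control array were only 0.0338 apart, so the groups did not overlap by a narrow margin. The difference was 0.35 ± 0.16 (SE, limma adjusted p = 0.800), or 0.19 without tumour-challenged replicate 1. Tln1, talin 1, had 9.15 and 8.85 in tumour-challenged samples, against 9.15, 8.88 and 8.34 in control samples. Its groups overlapped, and the difference of 0.22 ± 0.28 (SE) was -0.01 without control replicate 3.

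The single arrays shaped many of these values. Control replicate 3 held the lowest value for 19 of the 32 adhesion genes (59.4%), against 36.3% of all probe sets, and tumour-challenged replicate 1 held the highest value for 13 (40.6%), against 36.2% of all probe sets. The median deviation of the 32 genes from the control mean was 0.10 in tumour-challenged replicate 1 and -0.02 in tumour-challenged replicate 2. It was 0.05, 0.06 and -0.11 in control replicates 1, 2 and 3. Genes of oxidative phosphorylation gave median deviations of 0.51 and 0.12 in tumour-challenged replicates 1 and 2. In control replicates 1, 2 and 3 they were 0.24, 0.04 and -0.31, so the same arrays were highest and lowest. Taking these genes as a gauge of RNA quality is an assumption that was not tested. All 16 measured had a positive difference, with a median of 0.35, where 57.3% of all probe sets were positive. Their part in the adhesion values was not tested. When control replicate 3 was left out, 5 adhesion genes (15.6%) were higher and 5 (15.6%) lower with separate arrays, against 14.1% and 14.4% of all probe sets. With 1 tumour-challenged array left, separate arrays are more frequent by construction. Without tumour-challenged replicate 1 they were found for 8 genes higher (25%) and 7 lower (21.9%), against 25.1% and 25.5% of all probe sets. Without tumour-challenged replicate 2 they were found for 13 higher (40.6%) and 4 lower (12.5%), against 37.3% and 18.6% of all probe sets.

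**Figure D4:**
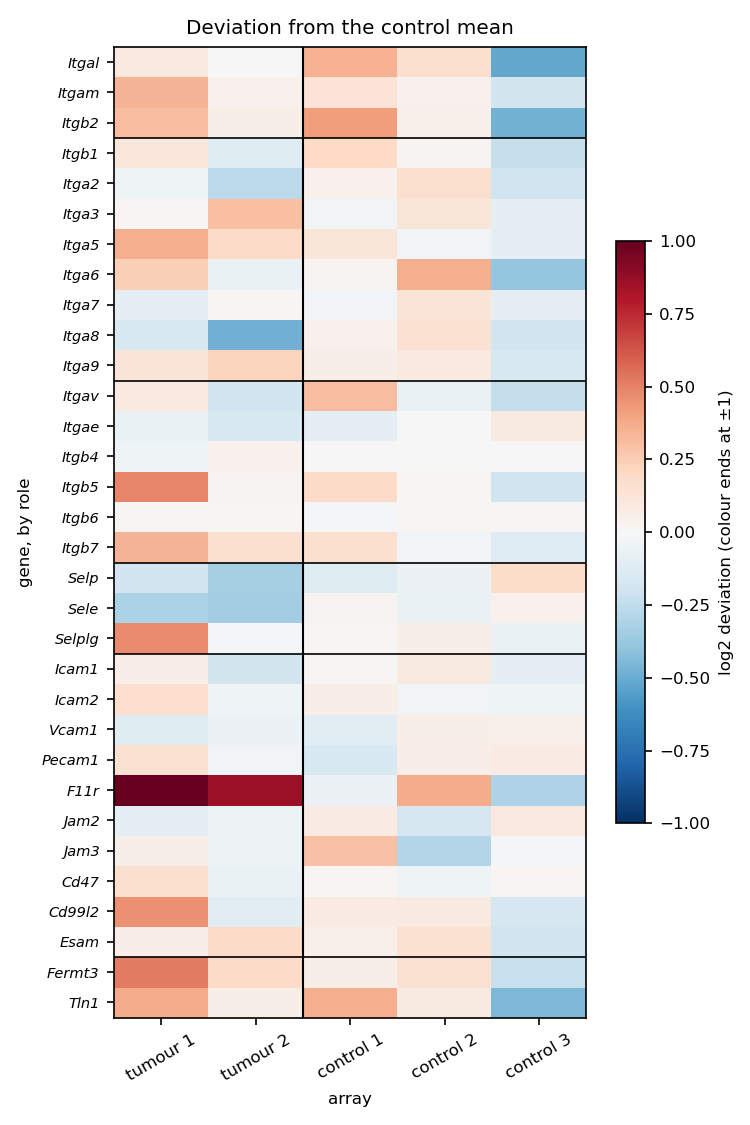
Deviation of each adhesion gene from its control mean on each array (log2, colour scale ending at ±1), tumour-challenged arrays left of the line, genes grouped by role. F11r is deep red on both tumour-challenged arrays, and the beta-2 chains and Tln1 are blue in control replicate 3.

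F11r was higher under every setting tried, although its size moved with single arrays. Its difference was 0.86 without tumour-challenged replicate 1 and 0.96 without control replicate 3, both under 2-fold, and 1.37 without tumour-challenged replicate 2. With each array centred on its median it was 1.08, and after quantile normalization 1.02. The limma adjusted p over these settings ran from 0.271 to 0.891. In an exact permutation test over the 10 ways to choose 2 of the 5 arrays, two-sided on the absolute difference, F11r had p = 0.1, the smallest the design allows. The exact permutation p was at this smallest value for 2 of the 32 genes (6.25%), F11r and Sele, and for 10.6% of all probe sets.

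Several cells that a lung sort can carry express F11r, so their markers are given beside it. Of 16 lung epithelial markers 15 had a positive difference, against 57.3% of all probe sets, with a median of 0.28. Of the 16, 6 were separate and higher and 0 separate and lower, against 11.2% and 7.83% of all probe sets. The summed epithelial level ran from 9285 to 9900 in tumour-challenged samples and from 5674 to 10387 in control samples. Sftpc, a surfactant gene of alveolar epithelium, had 12.28 and 12.20 in tumour-challenged samples, against 11.56, 12.45 and 11.20 in control samples, so its groups overlapped. Sftpa1, another surfactant gene, had 9.73 and 9.99 in tumour-challenged samples, against 8.61, 9.65 and 8.67 in control samples, a difference of 0.89 ± 0.37 (SE) with separate arrays. Scgb1a1, the club cell secretory gene, differed by 0.28 ± 0.55 (SE) with overlapping arrays.

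Of 9 platelet markers 6 were positive, with a median of 0.06, and the sum ran from 1559 to 2441 in tumour-challenged samples and from 1250 to 1592 in control samples. Ppbp, a platelet chemokine gene, had 10.09 and 8.98 in tumour-challenged samples, against 8.62, 8.74 and 8.23 in control samples. Pf4, named after its values were seen because it was the other platelet gene past 2-fold, had 8.63 and 7.17 in tumour-challenged samples, against 6.76, 7.29 and 6.33 in control samples. Both were highest in tumour-challenged replicate 1, as were F11r and 36.2% of all probe sets. The other 2 platelet genes named for their brightness had negative differences. Clec1b, the platelet receptor CLEC-2, had 7.59 and 7.28 in tumour-challenged samples, against 7.77, 7.73 and 7.86 in control samples, with separate arrays and a difference of -0.35 ± 0.12 (SE). Gp9, a chain of the von Willebrand factor receptor, differed by -0.07 ± 0.26 (SE). The part of epithelial, platelet and endothelial RNA in the F11r value was not tested.

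Neutrophil and monocyte markers describe the bulk of the sort, and some of them differed by more than any adhesion gene. Of 17 neutrophil markers 9 were positive and 8 negative, with a median of 0.01, but 6 were past 2-fold and higher, against 0.144% of all probe sets. Separate arrays were found for 7 higher and 2 lower, against 11.2% and 7.83% of all probe sets. The marker lists were also chosen with earlier results known, so these comparisons only describe the list. The 6 past 2-fold, named after their values were seen, were Ngp, Ltf, Lcn2, Camp, Mmp8 and Wfdc21. Ngp, Ltf, Lcn2, Camp and Mmp8 encode proteins of the neutrophil granules that are made while the cell matures. Ngp had 10.48 and 10.23 in tumour-challenged samples, against 8.47, 7.98 and 8.25 in control samples, a difference of 2.12 ± 0.18 (SE, limma adjusted p = 0.517). Ltf (lactoferrin) differed by 1.83 ± 0.10, Lcn2 by 1.67 ± 0.17, Camp (cathelicidin) by 1.56 ± 0.44, Mmp8 by 1.03 ± 0.27 and Wfdc21 by 1.03 ± 0.14 (SE). All 6 had both tumour-challenged arrays above all control arrays, and none passed the test over the whole table.

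The 3 brightest neutrophil markers had overlapping arrays. S100a9 was at 12.67 ± 0.17 (SD, n = 2) in tumour-challenged samples and 12.75 ± 0.11 (SD, n = 3) in control samples, and S100a8 and Il1b differed by -0.08 ± 0.13 and -0.28 ± 0.15 (SE). The summed neutrophil level ran from 35928 to 43807 in tumour-challenged samples and from 34700 to 38660 in control samples. Of 9 monocyte markers 8 were positive, with a median of 0.08. Of the 9, 4 were separate and higher and 0 separate and lower, against 11.2% and 7.83% of all probe sets. The summed monocyte level ran from 14499 to 20525 in tumour-challenged samples and from 11090 to 15509 in control samples. Vcan, the matrix proteoglycan versican and the 1 monocyte marker past 2-fold, named after its values were seen, had 11.10 and 10.26 in tumour-challenged samples, against 8.69, 8.39 and 8.28 in control samples, a difference of 2.23 ± 0.29 (SE, limma adjusted p = 0.537). Ccr2, the monocyte chemokine receptor, was at 11.63 ± 0.37 (SD, n = 2) in tumour-challenged samples and 11.58 ± 0.15 (SD, n = 3) in control samples. Fn1 and Treml4, named with it for their brightness, differed by 0.65 ± 0.24 and 0.23 ± 0.12 (SE), both with separate, higher arrays. Fn1 is also listed as an integrin ligand below. The part of the makeup or maturity of the sorted cells in the adhesion values was not tested.

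**Figure D5:**
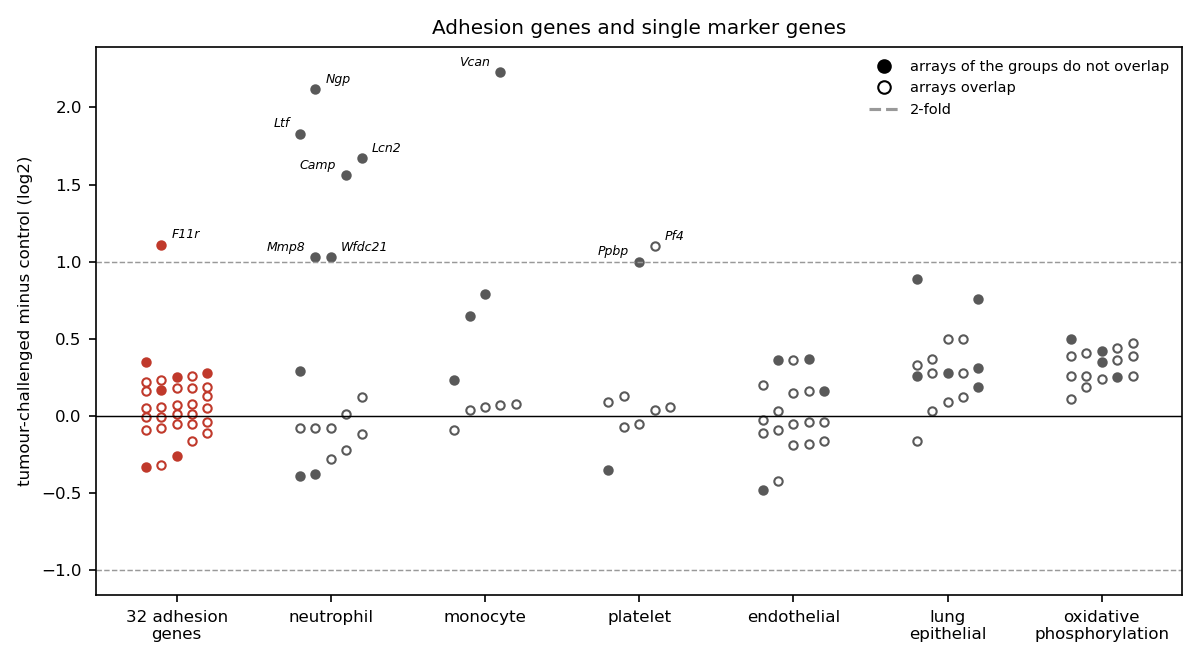
Difference of group means in log2, tumour-challenged minus control, for each adhesion gene (red) and each single marker gene (grey), by list; filled points have arrays that do not overlap between the groups and dashed lines mark 2-fold. F11r, at 1.11, lies beyond the line, as do 6 neutrophil markers, Vcan, Pf4 and, by a small margin, Ppbp.

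Other genes of the adhesion pathway moved little as groups. Of the 97 genes measured in 4 further lists, limma called 0 at the adjusted threshold, as over all probe sets. At limma's unadjusted p under 0.05, 5 were higher and 1 lower, against 3.58% and 2.96% of all probe sets. None was past 2-fold, against 0.144% higher and 0.132% lower of all probe sets. Of 24 other adhesion receptors 15 were positive, with a median of 0.06. Of the 24, 2 were separate and higher and 4 separate and lower, against 11.2% and 7.83% of all probe sets. Cd177, a neutrophil surface protein that associates with Mac-1, had 9.02 and 8.90 in tumour-challenged samples, against 8.82, 8.64 and 7.87 in control samples, a difference of 0.52 ± 0.32 (SE). The groups were separate, with control replicate 3 well below the rest. Mcam, an immunoglobulin-type molecule of vessels, differed by 0.36 ± 0.12, Thy1, a surface protein of mouse T cells, by -0.39 ± 0.15, and Cd34, a sialomucin of progenitors and endothelium, by -0.38 ± 0.17 (SE).

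Of 32 genes that activate integrins or link them to actin, 21 were positive, with a median of 0.05. Separate arrays were found for 5 higher and 3 lower, against 11.2% and 7.83% of all probe sets. Rac2, a small GTPase of blood cells, had 10.29 and 9.96 in tumour-challenged samples, against 9.86, 9.83 and 9.22 in control samples, a difference of 0.49 ± 0.25 (SE). Zyx, the focal-adhesion protein zyxin, had 9.84 and 9.74 in tumour-challenged samples, against 9.49, 9.53 and 9.30 in control samples. Its groups were 0.205 apart and the difference was 0.35 ± 0.10 (SE, limma adjusted p = 0.685). The actin cross-linker Actn1 differed by 0.34 ± 0.21 and Cytip, which binds the LFA-1 regulator cytohesin-1, by -0.31 ± 0.16 (SE).

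Of 17 enzymes and carriers that build selectin ligands 14 were positive, with a median of 0.06. St3gal4, a sialyltransferase that finishes selectin ligands on neutrophils, had 9.52 and 9.21 in tumour-challenged samples, against 9.13, 8.99 and 8.66 in control samples. The groups did not overlap, and the difference was 0.44 ± 0.18 (SE). Tpst1, which adds sulfate to tyrosines, as on PSGL-1, had 8.61 and 8.18 in tumour-challenged samples, against 8.98, 8.70 and 8.84 in control samples, a difference of -0.45 ± 0.16 (SE). St3gal3, another sialyltransferase, differed by 0.22 ± 0.10, and the fucosyltransferase Fut7 by 0.27 ± 0.10 (SE) below background. Of 24 matrix and plasma proteins that integrins bind, 15 were positive, with a median of 0.02. Fn1, the Itga5 partner fibronectin, had 12.15 and 11.57 in tumour-challenged samples, against 11.42, 11.26 and 10.93 in control samples, a difference of 0.65 ± 0.24 (SE, limma adjusted p = 0.758). The laminin chains Lamc1 and Lama4 differed by 0.46 ± 0.16 and -0.13 ± 0.06 (SE).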

How the data were processed

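Total RNA of sorted lung cells was amplified and hybridised, 1 array per sample. The deposited log2 values were made by the authors with RMA, per the submitters' processing notes, which also name mouse build mm8 without a role. RMA's version and any filter on probe sets are not given in the sources. Of 16661 probe sets, 14939 carry 1 gene symbol, 989 several, and 733 are unnamed here. Some 19.8% have equal values on 2 or more arrays. The number of arrays limits the precision.

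Groups were compared with limma 3.58.1 (R 4.3.3), tumour-challenged minus control, two-sided, adjusted by Benjamini-Hochberg over all probe sets, threshold 0.05, with 3 residual and 1.36 prior degrees of freedom. The procedure was tested on simulated data. The genes and lists were chosen with earlier results of these data known. Values on every array were to be given for the beta-2 chains, F11r, Selplg, genes past 1.5-fold, and genes over 0.3 log2 with separate arrays, and are given for further genes too. Up to 4 genes per pathway list (largest difference with separate arrays) and 3 per marker list (highest mean) could be named. Linear sums add the antilogs of the log2 values. Alternatives were centring, quantile normalization, a filter on the dimmest 25%, a trended robust prior, a replicate block, the mean over a gene's probe sets, a 1.5-fold threshold and leaving out each array. Lists of fibroblast, B, T and NK, dendritic, alveolar macrophage, eosinophil and erythroid markers were also read (closing section). Promoter motifs were settled after a first search had been seen, and both sets are reported.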

Additional observations from a re-analysis of the deposited data

How the results depend on the processing

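Of the alternatives, 1 gave a call over all probe sets: centring the arrays on their medians gave 1 higher probe set by limma and 0 lower. None called an adhesion gene. The number of adhesion genes past 2-fold was 1 (F11r), and 0 with a replicate block, which lowered F11r to 0.96. Leaving out each array gave 0 to 1. At 1.5-fold it remained 1. Control replicate 3 is the only array with its replicate number. The block's differences therefore equal those without that array, and the block is no separate check. Each adhesion gene has 1 probe set, so the mean over a gene's probe sets could not differ and is no check either. After quantile normalization 8 adhesion genes (25%) were higher and 4 (12.5%) lower with separate arrays, against 13.9% and 12.4% of all probe sets. Leaving out each array gave 5 to 13 higher and 3 to 7 lower, against 14.1% to 37.3% and 11.1% to 25.5% of all probe sets. The selectin and ligand median was -0.34 after quantile normalization, -0.17 with the replicate block, and -0.33 to -0.17 without single arrays. The immunoglobulin-type and junctional median ran from -0.05 to 0.11 without single arrays. The causes were not tested. Replicate numbers 1 and 2 occur in both groups, but the labels do not say that they pair mice. Over all probe sets the deviations of same-numbered arrays correlated at 0.33, which rests on 2 pairs. Small differences turned sign: centring gave -0.02 for both Itgb6 and Jam3, quantile normalization gave -0.01 for Itga6, -0.02 for Icam2, -0.03 for Pecam1 and -0.0039 for Cd47, and the replicate block gave -0.21 for Itgal, -0.05 for Itgb2, -0.11 for Itga6 and -0.01 for Tln1. Without single arrays 15 of 32 genes turned sign at least once, none with a difference over 0.23: Itgal (-0.21 to 0.22), Itgb2 (-0.05 to 0.39), Itgb1 (-0.12 to 0.11), Itga6 (-0.11 to 0.27), Itga7 (-0.09 to 0.02), Itgav (-0.19 to 0.11), Itgb4 (-0.04 to 0.04), Selplg (-0.01 to 0.47), Icam1 (-0.18 to 0.07), Icam2 (-0.04 to 0.17), Pecam1 (-0.03 to 0.15), Jam3 (-0.14 to 0.15), Cd47 (-0.07 to 0.16), Cd99l2 (-0.11 to 0.46) and Tln1 (-0.01 to 0.40). Some genes kept their sign but moved by over 1.5 times without single arrays, among them Itga2 (-0.27 to -0.04), Itga3 (0.02 to 0.30), Itga9 (0.09 to 0.22), Jam2 (-0.16 to -0.03) and Esam (0.03 to 0.20). Itgb6 and Jam3 were among the dimmest 25% and gave no value there.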

Other observations

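Markers of other leukocytes that carry adhesion molecules of their own were read as values. All 11 measured B-cell markers had a negative difference, with a median of -0.60, and their summed level ran from 1698 to 1707 in tumour-challenged samples and from 2163 to 2688 in control samples. The T and NK markers had a median of 0.01 over 15 genes and the dendritic markers one of 0.00 over 13. The dendritic median covered opposite values, named after they were seen: Clec9a differed by -1.17 ± 0.26 and Flt3 by 1.27 ± 0.49 (SE). Alveolar macrophage markers were negative in 11 of 16, with a median of -0.12. Of the 16, 8 were separate and lower and 2 separate and higher, against 7.83% and 11.2% of all probe sets. Among the 8 were Fabp1 at -1.15 ± 0.15 and Lpl at -0.83 ± 0.18 (SE). Eosinophil, basophil and mast cell markers were negative in 9 of 15, with a median of -0.05 and Ccr3 at -1.48 ± 0.31 (SE). Erythroid markers were positive in 8 of 9, with a median of 0.14 and Car2 at 1.09 ± 0.25 (SE), and fibroblast and smooth muscle markers in 6 of 16, with a median of -0.02.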
